A study of Arabidopsis thaliana with 8 samples.

Results

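The mitochondrial genome of Arabidopsis thaliana was followed through 49 probe sets, each annotated with exactly 1 mitochondrial locus code (a code that starts with ATMG), out of 22810 probe sets on the array. A probe set is a group of short oligonucleotides that together report 1 transcript. The 49 probe sets named 49 different loci, and all 49 were kept, since no filter on low values was applied. Of these loci, 9 had a known function: nad4, nad4L, nad5c, nad7 and nad9 encode subunits of respiratory complex I, cox1 and cox2 encode subunits of complex IV, atp4 encodes a subunit of the ATP synthase, and ccmB encodes a protein of cytochrome c maturation. The other 40 were open reading frames annotated as hypothetical, of which ATMG01410 was listed with a mitoviral RNA-dependent RNA polymerase domain. From a list of 41 mitochondrial genes of known function, 23 were represented on the array only by probe sets that carry a further code, and 9 were not analysed here. Among those left out of the 49 for this reason were cob, cox3, atp1, atp9 and the ribosomal protein genes.

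Roots were profiled with 8 single-colour arrays, 1 per RNA sample, with 2 biological replicates in each of 4 groups. The groups were uri −Fe, WT −Fe, uri +Fe and WT +Fe, where WT is wild type and uri is a mutant of URI, a gene for a basic helix-loop-helix transcription factor of the iron-deficiency response. All plants spent 14 days on diluted Gamborg's B5 medium and then 3 days on agar, which held 300 µM of the iron chelator ferrozine for −Fe or 50 µM Fe(III)-EDTA for +Fe. The labels give neither the ecotype nor the uri allele, and they do not say whether the replicates came from separate plates or harvests, so the p-values measure the spread between these samples.

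The respiratory chain of plant mitochondria is built from 2 sets of genes. A few core subunits of complexes I, III and IV and of the ATP synthase are encoded in the mitochondrial genome, while most subunits, the RNA polymerases of the organelle and nearly all factors that splice, edit and degrade its transcripts are encoded in the nucleus. Complexes I, II, III and IV carry electrons through iron-sulfur clusters and haems, so the chain is a large user of iron in roots. Plant mitochondrial transcripts mostly lack stable poly(A) tails, and a short tail added to them marks them for decay. The labelling protocol named in the labels is the standard one-cycle protocol of the manufacturer, which primes with oligo(dT) and therefore favours polyadenylated RNA. In Arabidopsis a large copy of mitochondrial DNA also lies on chromosome 2, and 56 of the 57 probe sets with a mitochondrial code beside another code carried an AT2G code.

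Levels are given as log2 of the deposited intensity. The URI transcript, measured to check the labels, read 8.52 and 8.62 on the arrays labelled uri −Fe, against 8.64 and 8.60 on the arrays labelled WT −Fe. On the arrays labelled uri +Fe it read 7.84 and 7.64, against 8.73 and 8.78 on the arrays labelled WT +Fe. The mutant label was thus matched by a lower URI level under +Fe and not under −Fe, where the transcript gives no check of the label uri −Fe. The position of the mutation within URI is not given in the sources used here. Below, uri −Fe stands for the arrays so labelled, and every direction that involves them rests on their titles. The numbers that open the titles fall into 2 runs, one for all −Fe arrays and one for all +Fe arrays, so iron supply and run cannot be told apart, while each uri against WT comparison lies within a run. WT +Fe replicate 1 stood apart from the other 7 arrays in the difference between 3′ and 5′ control probe sets, at 1.53 for actin against 1.06 to 1.31, and at 0.96 for ubiquitin against 0.36 to 0.64. It also had the highest median over the 49 mitochondrial probe sets, 4.82 against 4.65 to 4.77. Where leaving it out changed a call, this is given beside that result.

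The mitochondrial probe sets were dim on every array. On the log2 scale member values ran between 3.15 and 8.51, while the 8 arrays had lower quartiles of 4.65 to 4.80 and medians of 6.90 to 7.001 over all probe sets tested. Of the 49, 18 lay below the lower quartile of the array on all 8 arrays, and each of these 18 was a reading frame of unknown function. Another 15 lay above the lower quartile on all 8 arrays. The complex I gene nad4 and the complex IV gene cox1 lay above the array median on all 8 arrays, and no member exceeded the upper quartile on any array. When the probe sets tested were divided by mean level into 4 brightness classes of equal size, 23 members fell in the dimmest class, 23 in the second, 3 in the third and 0 in the brightest. Detection calls were not used here, so a member near the lower quartile cannot be told from background, and a dim probe set may also bind its target weakly.

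The complex I transcript nad4 read 7.78 and 8.03 in uri −Fe, 8.51 and 8.41 in WT −Fe, 8.09 and 7.96 in uri +Fe, and 8.45 and 7.68 in WT +Fe. Its WT +Fe replicates spanned almost its whole range over the 8 arrays. The catalytic complex IV transcript cox1 read 8.07 and 7.78 in uri −Fe, 8.005 and 7.57 in WT −Fe, 8.004 and 7.60 in uri +Fe, and 8.20 and 7.75 in WT +Fe. The replicates of each group lay farther apart than any pair of group means of cox1, and all 4 groups overlapped. In each group replicate 1 of cox1 read higher than replicate 2, so this spread went with the replicate number. The other complex IV transcript, cox2, read 6.34 and 6.57 in uri −Fe, 6.25 and 6.23 in WT −Fe, 6.25 and 6.35 in uri +Fe, and 6.16 and 6.27 in WT +Fe. Both uri −Fe arrays lay above both WT −Fe arrays for cox2, by 0.21 on average, and the difference did not pass the test (limma adjusted p = 0.244).

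The transcript of atp4, a membrane subunit of the ATP synthase, read 5.14 and 5.54 in uri −Fe, 5.31 and 5.19 in WT −Fe, 4.90 and 4.76 in uri +Fe, and 5.08 and 5.06 in WT +Fe. The 4 −Fe arrays all lay above the 4 +Fe arrays. The transcript of ccmB, which encodes a membrane subunit of the transporter used in cytochrome c maturation, read 4.80 and 4.77 in uri −Fe, 4.65 and 4.83 in WT −Fe, 4.71 and 4.71 in uri +Fe, and 4.85 and 4.71 in WT +Fe. Its range over the 8 arrays was 0.20. For nad7, a subunit of complex I, the values were 4.49 and 4.83 in uri −Fe, 4.61 and 4.81 in WT −Fe, 4.89 and 4.56 in uri +Fe, and 4.65 and 4.66 in WT +Fe. The groups overlapped for nad7, and 5 of its 8 values lay below the lower quartile of the array.

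**Figure D1:**
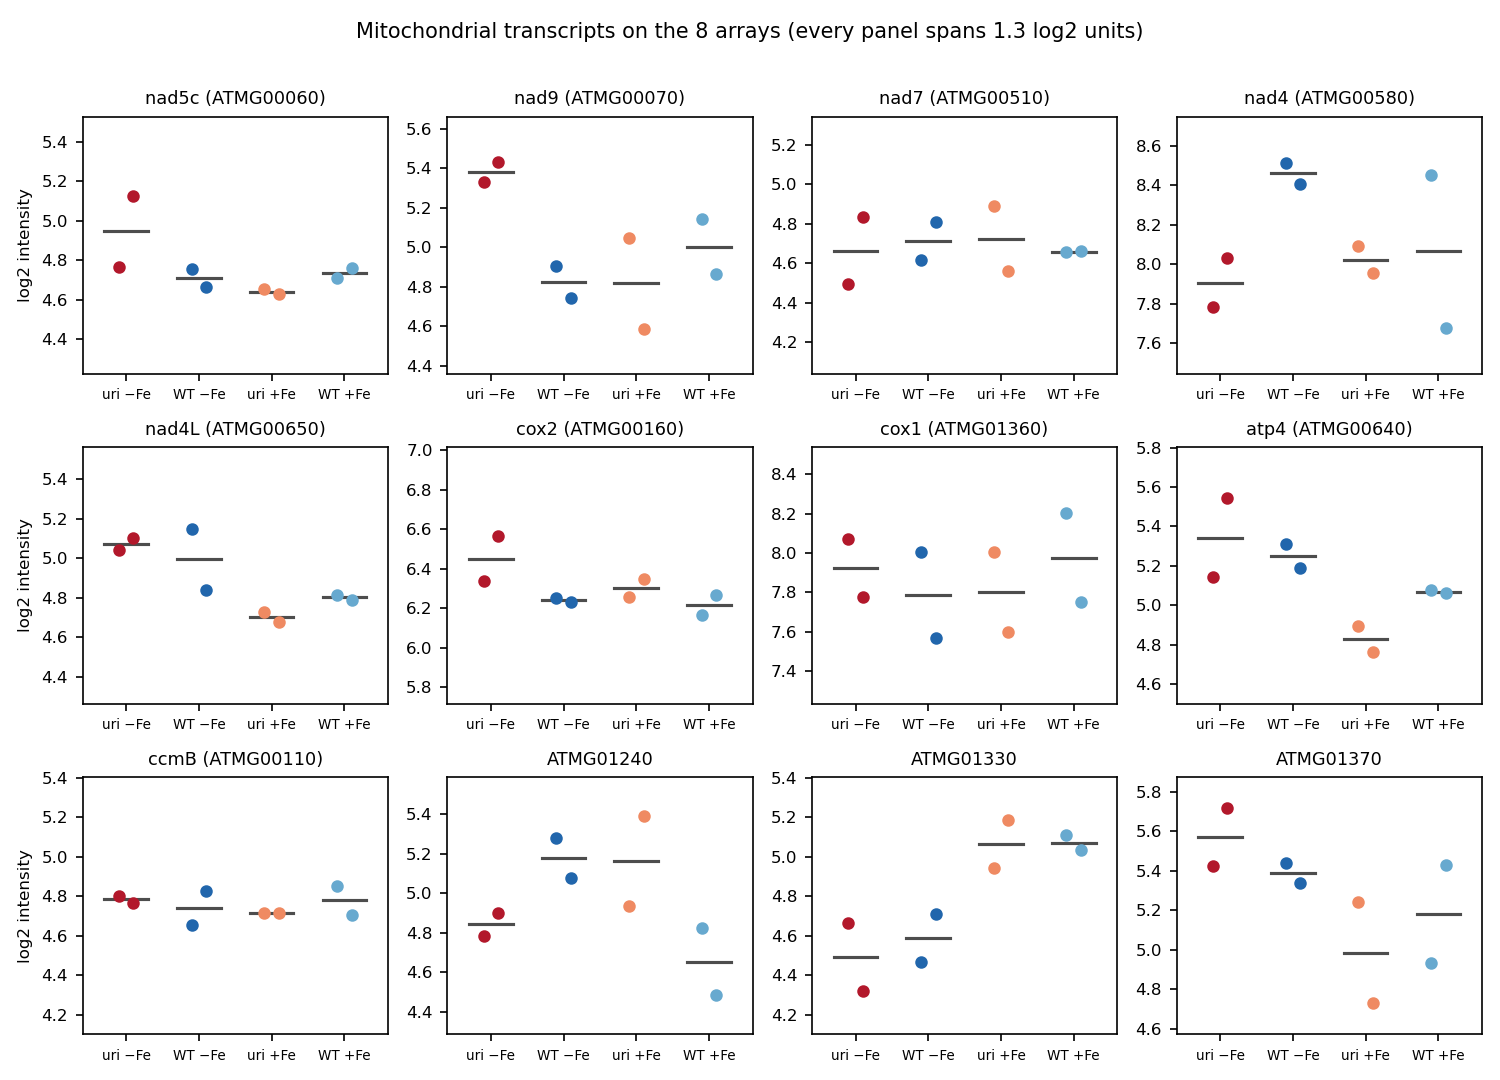
Log2 intensity (y axis) of the 9 mitochondrial genes of known function and of the reading frames ATMG01240, ATMG01330 and ATMG01370, with 1 point per array in the order uri −Fe, WT −Fe, uri +Fe and WT +Fe (x axis) and a bar at the mean of each pair of replicates. The y axis spans the same number of log2 units in each panel. For nad9 both uri −Fe arrays (5.33 and 5.43) lie above the other 6 arrays, and for ATMG01330 the 4 −Fe arrays (4.32 to 4.71) lie below the 4 +Fe arrays (4.95 to 5.19).

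Levels of the mitochondrial transcripts stayed within a narrow range over the series. The range of a member over the 8 arrays had a median of 0.47 and ran between 0.14 for ATMG00820 and 0.99 for ATMG01370, so that no member differed by 1 log2 unit or more between any of the arrays. Over all probe sets tested the median range was 0.55, and 85.9% had a range under 1. The median standard deviation within groups was 0.16 for the members and 0.13 for all probe sets tested. The highest of the 8 values of a member fell on replicates 1 and 2 in 6 and 12 cases for uri −Fe, 4 and 2 for WT −Fe, 3 and 11 for uri +Fe, and 8 and 3 for WT +Fe. The lowest value fell on them in 3 and 3 cases for uri −Fe, 5 and 5 for WT −Fe, 13 and 9 for uri +Fe, and 2 and 9 for WT +Fe. Replicates of a group thus often differed in how many of these extremes they held, and each array held some of both kinds.

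**Figure D2:**
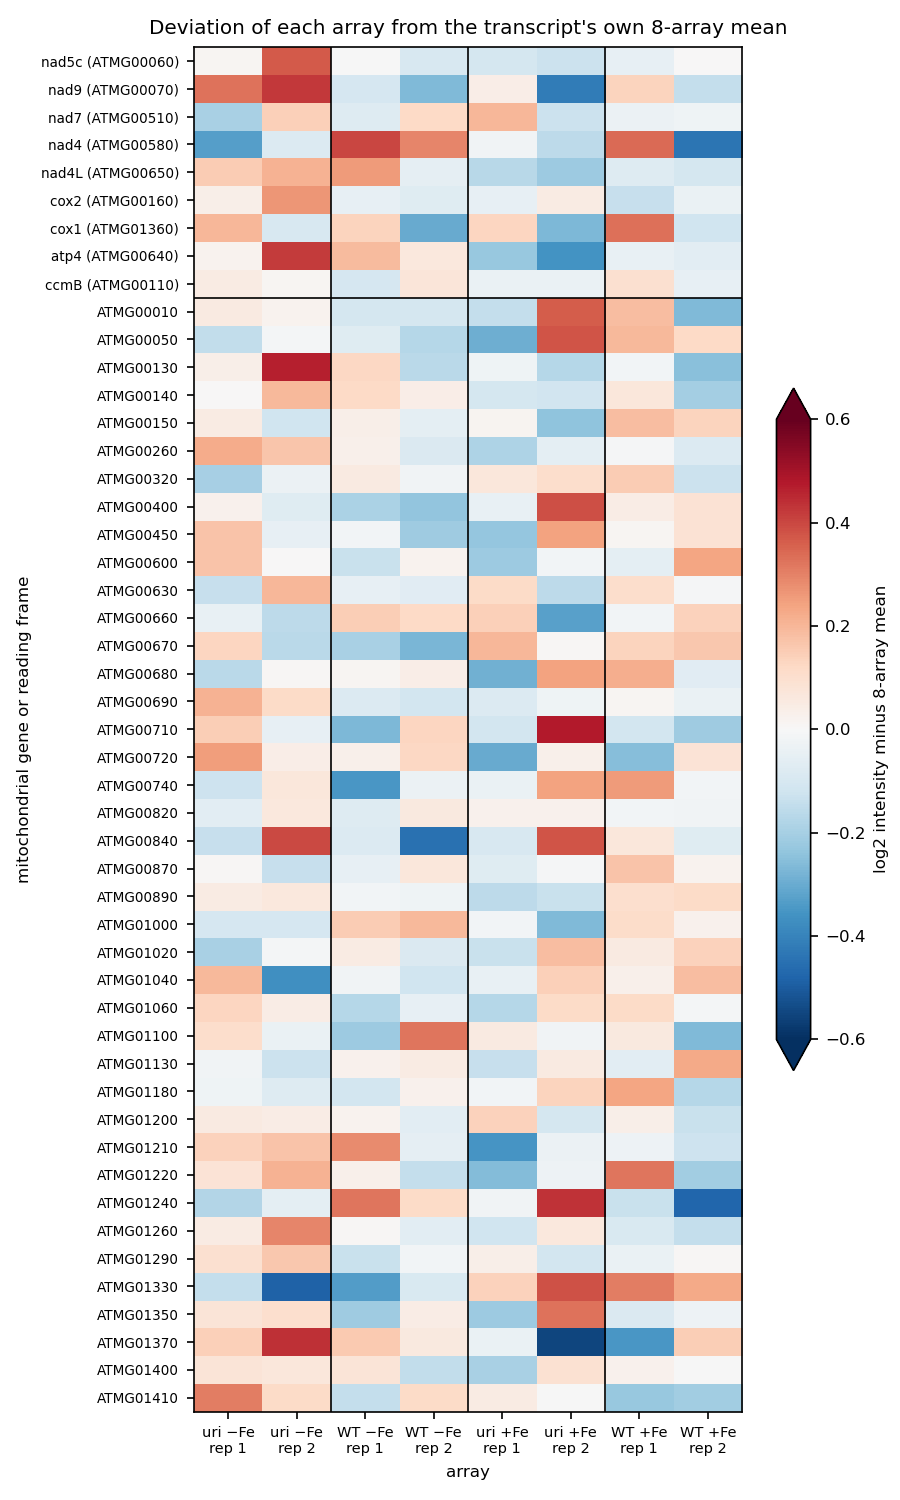
Deviation of each array (columns, in the order uri −Fe, WT −Fe, uri +Fe and WT +Fe) from the 8-array mean of the transcript (colour, log2 units) for the 49 mitochondrial probe sets (rows, with the 9 of known function above the horizontal line). Replicates of a group often differ in sign, and no column is of 1 colour. The strongest colours lie in nad9, ATMG01240, ATMG01330 and ATMG01370 among others.

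The response to iron deficiency was first compared in the mutant, between the arrays labelled uri −Fe and those labelled uri +Fe. In this comparison nad9, atp4 and nad4L, which encode subunits of complex I and the ATP synthase, rose together with the reading frame ATMG01370, and the reading frame ATMG01330 fell. These 5 of 49 members passed the test (limma, Benjamini-Hochberg adjusted p under 0.05), against 33.1% of all probe sets tested. The members' share was thus below the background in this comparison. By direction, 4 were higher against 15.1% of all, and 1 was lower against 18% of all. On uri +Fe replicate 2 the 4 that rose lay below the lower quartile of the array (4.80). There nad9 read 4.59, atp4 4.76, nad4L 4.68 and ATMG01370 4.73, levels that cannot be told from background. All 5 lay in the second brightness class, where 5 of 23 members were called and 34.3% of all probe sets were, while in the dimmest class 0 of 23 members were called and 3.89% of all probe sets were. The median difference of the 49 was 0.05, against −0.01 over all probe sets tested, and 29 members had a difference above 0. Called rises made up 3 of the 9 genes of known function, against 1 of the 40 of unknown function. These counts are not at like brightness, since 18 of the 40 and 0 of the 9 lay below the lower quartile on all 8 arrays.

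The complex I transcript nad9 read 5.33 and 5.43 in uri −Fe, against 5.05 and 4.59 in uri +Fe. The groups did not overlap, and the difference was 0.56 ± 0.16 (moderated standard error, SE; adjusted p = 0.0147), a 1.48-fold rise. The ATP synthase transcript atp4 rose by 0.51 ± 0.14 (adjusted p = 0.0129), or 1.43-fold. For nad4L, a small membrane subunit of complex I, the values were 5.04 and 5.10 in uri −Fe, against 4.73 and 4.68 in uri +Fe, a rise of 0.37 ± 0.13 (adjusted p = 0.0378). Both replicates of each group were close together for nad4L, and the 2 groups did not overlap. The remaining complex I genes did not pass, with differences of 0.31 for nad5c (adjusted p = 0.0974), −0.06 for nad7 and −0.12 for nad4. Differences of 0.12 for cox1, 0.15 for cox2 and 0.07 for ccmB did not pass either.

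The reading frame ATMG01370 read 5.42 and 5.72 in uri −Fe, against 5.24 and 4.73 in uri +Fe, a difference of 0.59 ± 0.19 (adjusted p = 0.0314). Its 2 uri +Fe replicates lay farther apart than the nearest arrays of the 2 groups. The reading frame ATMG01330 read 4.66 and 4.32 in uri −Fe, against 4.95 and 5.19 in uri +Fe, and fell by 0.58 on the log2 scale (SE 0.15, adjusted p = 0.00904). Both uri −Fe arrays lay below both uri +Fe arrays. The next member outside the threshold was ATMG00260, with a difference of 0.32 and an adjusted p of 0.0512. How many members were called, and which, depended on single uri arrays. The share called over all probe sets tested also changed between the fits without 1 array, so these shifts were not particular to the members. The differences themselves moved less for some members than for others. Without 1 array the difference of nad4L ran between 0.34 and 0.40 and that of ATMG01330 between −0.75 and −0.40. The call of nad4L was nevertheless lost on leaving out any of the uri arrays. It was also lost with trended moderation and with the uri arrays alone in the fit, where 34.5% and 27.9% of all probe sets were called. Without uri −Fe replicate 2 the difference of nad9 was 0.51, and that of atp4 was 0.31. Without uri +Fe replicate 2 the difference was 0.34 for nad9 and 0.33 for ATMG01370. With 32 added to each intensity before the logarithm, 3 of the 5 were called, namely nad9, atp4 and ATMG01330, against 34% of all probe sets tested.

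In wild type, WT −Fe against WT +Fe, no mitochondrial transcript passed the test. By limma 0 of 49 members were called at an adjusted p under 0.05, against 5.65% of all probe sets tested, and 3 members had an unadjusted p under 0.05, against 18.1% of all. The median difference was −0.04, against −0.03 over all probe sets tested, and 21 members had a difference above 0. Without 1 array the share called over all probe sets ran between 1.91% and 7.6%, and it was 2.84% without WT +Fe replicate 1. The same reading frame that fell in uri, ATMG01330, read 4.47 and 4.71 in WT −Fe, against 5.11 and 5.03 in WT +Fe. The 2 groups did not overlap, and the difference of −0.48 ± 0.15 had an adjusted p of 0.0843. ATMG01240 read 5.28 and 5.07 in WT −Fe, against 4.82 and 4.48 in WT +Fe, with a difference of 0.52 (adjusted p = 0.0933), and ATMG00670 had a difference of −0.38 (adjusted p = 0.122).

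Among the genes of known function the differences in wild type ran between −0.19 for cox1 and 0.40 for nad4. For nad4 the interval of 95% reached from −0.04 to 0.83, and without WT +Fe replicate 1, the array that stood apart, nad4 was called with a difference of 0.78. Without either uri +Fe array, ATMG01240 was called instead, as it was after quantile normalization, and with the wild-type arrays alone in the fit ATMG01330 was called. After quantile normalization and with the wild-type arrays alone 1 member was called in each fit, against 6.11% and 7.04% of all probe sets tested.

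**Figure D3:**
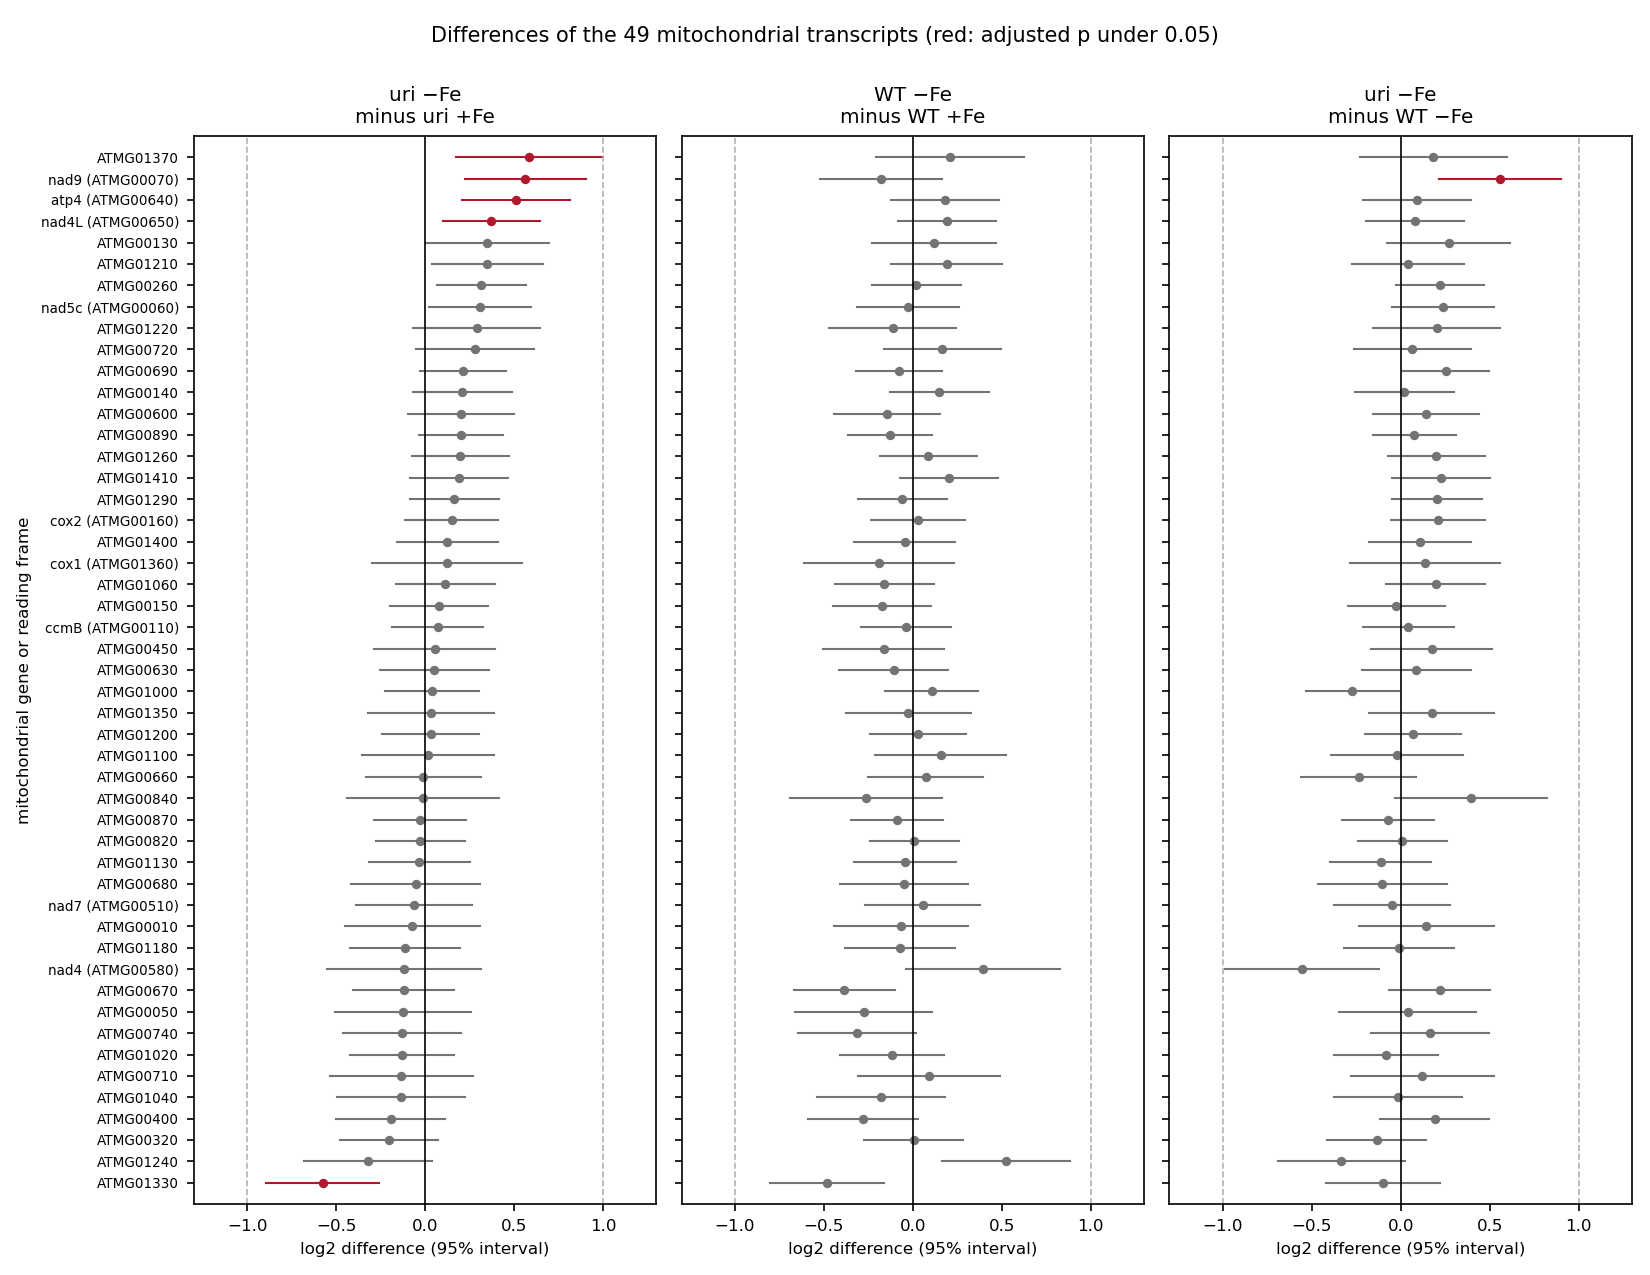
Log2 difference with its 95% interval (x axis) of each of the 49 mitochondrial transcripts (rows, ordered by the difference in uri) for uri −Fe minus uri +Fe, WT −Fe minus WT +Fe, and uri −Fe minus WT −Fe, with members at an adjusted p under 0.05 in red and dashed lines at 2-fold. Red points number 5, 0 and 1 from left to right. All points lie within the dashed lines, and 1 interval, that of ATMG01370 in uri, reaches past them.

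The genotypes were then compared within each iron supply. Between the arrays labelled uri −Fe and WT −Fe, the complex I transcript nad9 was higher in uri, and it was the single member of 49 to pass, against 26.6% of all probe sets tested. The values of nad9 were 5.33 and 5.43 in uri −Fe, against 4.90 and 4.74 in WT −Fe, a difference of 0.56 ± 0.16 (limma adjusted p = 0.0191). The 2 groups were separated by more than the distance between replicates. The call was lost without any 1 of the 4 −Fe arrays, with adjusted p between 0.0532 and 0.147, in fits that called 15.9% to 18.8% of all probe sets. The median difference of the 49 was 0.09, against 0.02 over all probe sets tested, and 34 members had a difference above 0.

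Another complex I transcript, nad4, pointed the other way. It read 7.78 and 8.03 in uri −Fe, against 8.51 and 8.41 in WT −Fe, without overlap between the groups, and its difference of −0.55 ± 0.20 had an adjusted p of 0.0586. Of its 4 pairs of replicates the WT +Fe pair was the widest (SD 0.55, n = 2). Without either WT +Fe array the same difference had an adjusted p of 0.00814. The reading frames ATMG00690 and ATMG01000 had differences of 0.26 and −0.27 with unadjusted p under 0.05, and neither passed after adjustment (adjusted p = 0.114 and 0.122).

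Under +Fe, uri against WT, 0 of 49 members were called by limma, against 3.12% of all probe sets tested, and 2 had an unadjusted p under 0.05, against 16% of all. The share called over all probe sets was 0.787% without WT +Fe replicate 1 and ran up to 6.06% without 1 of the other arrays. ATMG01240 read 4.94 and 5.39 in uri +Fe, against 4.82 and 4.48 in WT +Fe, a difference of 0.51 (adjusted p = 0.132). Its arrays did not overlap between the groups, and it was called when uri +Fe replicate 1 was left out, with a difference of 0.74. ATMG00890 had a difference of −0.25 (adjusted p = 0.271). The median difference was −0.05, against 0.01 over all probe sets tested, and 16 members had a difference above 0. Differences of the known genes ran between −0.24 for atp4 and 0.09 for cox2.

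The interaction, the iron response in uri minus that in wild type, was tested in the same fit. It passed for 2 of 49 members, against 20.4% of all probe sets tested, a share that ran between 12.5% and 21.7% without 1 array. For nad9 the response was 0.56 in uri and −0.18 in WT, a difference between the responses of 0.74 ± 0.22 (adjusted p = 0.0329). For ATMG01240 the response was −0.32 in uri and 0.52 in WT, a difference of −0.84 ± 0.23 (adjusted p = 0.0222). The 2 uri −Fe arrays of ATMG01240 read 4.78 and 4.90, below both WT −Fe arrays and below both uri +Fe arrays. For atp4 and nad4L the responses in uri passed and those in WT did not, yet the interaction gave 0.33 (adjusted p = 0.288) and 0.18 (adjusted p = 0.548), so a difference between the genotypes was not shown for either. For ATMG01330 the responses were −0.58 in uri and −0.48 in WT. Without WT +Fe replicate 1 the interaction was still called for 2 members, ATMG01240 and nad4, while that of nad9 was 0.61 with an adjusted p of 0.129. The median interaction of the 49 was 0.11, against 0.00 over all probe sets tested.

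The count of members whose arrays did not overlap between groups also stayed under the background. It was 21 of 49 for uri −Fe against uri +Fe, where 61.3% of all probe sets tested did not overlap, and 20 of 49 for WT −Fe against WT +Fe, where 50.7% did not. It was 23 of 49 for uri −Fe against WT −Fe, where 66.0% of all did not, and 10 of 49 for uri +Fe against WT +Fe, where 40.8% did not.

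The intervals of the differences set a bound on how far the mitochondrial transcripts moved as measured here. The 95% interval lay within a 2-fold change in either direction for 48 of 49 members for uri −Fe against uri +Fe, against 87.5% of all probe sets tested. It did so for all 49 in WT −Fe against WT +Fe (97.2% of all), in uri −Fe against WT −Fe (89.5% of all) and in uri +Fe against WT +Fe (98.3% of all). For the interaction it did so for 46 of 49, against 80.2% of all. A tighter bound of 1.5-fold held for 38 of 49 in uri −Fe against uri +Fe (57.9% of all) and for 39 in WT −Fe against WT +Fe (80.7% of all). It held for 43 in uri −Fe against WT −Fe (62.8% of all) and for 45 in uri +Fe against WT +Fe (82.6% of all). For the interaction it held for 24 of 49 (35.2% of all). At low levels the intensity holds a share of background, so a difference on this scale can understate a change in the transcript.

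Transcripts of the plastid genome, the other organelle genome, likewise mostly lack stable poly(A) tails and were set beside the mitochondrial ones. Of 72 probe sets with a single plastid code, 11 were higher and 0 lower in uri −Fe against uri +Fe (15.3%, against 33.1% of all probe sets tested called in either direction and 15.1% called higher). For uri −Fe against WT −Fe 12 were higher and 0 lower (16.7%, against 26.6% of all). In WT −Fe against WT +Fe 0 were higher and 4 lower (5.56%, against 5.65% of all). For uri +Fe against WT +Fe 0 were higher and 1 lower (1.39%, against 3.12% of all). The plastid shares called in either direction were thus below or near the background, while the plastid calls of each comparison went 1 way. Over all 22746 probe sets tested, 2784 were called higher and 3273 lower in uri −Fe against WT −Fe. In WT −Fe against WT +Fe 798 were higher and 487 lower, and in uri +Fe against WT +Fe 304 were higher and 405 lower. The median difference of the plastid probe sets was 0.15 in uri −Fe against uri +Fe and 0.20 in uri −Fe against WT −Fe. It was −0.20 both in WT −Fe against WT +Fe and in uri +Fe against WT +Fe. In the interaction 14 plastid probe sets were called, all higher (19.4%, against 20.4% of all called in either direction), and the median was 0.39. Of all 22746 probe sets tested, 2183 were called higher and 2454 lower in the interaction. No test was made of the difference between the 2 organelles.

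Markers of shoot tissue moved with these groups. The 11 photosynthesis genes used as shoot markers had a summed intensity of 6302 to 6849.5 in uri −Fe and 2768 to 2789 in WT −Fe, and of 3680.3 to 4029 in uri +Fe and 4353 to 4879.8 in WT +Fe. All 11 were called higher in uri −Fe against WT −Fe, against 26.6% of all probe sets tested called in either direction. In uri −Fe against uri +Fe 6 were called higher (54.5%, against 33.1% of all). In WT −Fe against WT +Fe 9 were called lower (81.8%, against 5.65% of all), and in uri +Fe against WT +Fe 1 was (9.09%, against 3.12% of all). All 11 lay above the lower quartile of the array on all 8 arrays. The 12 root markers, among them the Casparian strip genes CASP1 to CASP5, summed to 6934 to 7282 in uri −Fe and 10322 to 10637 in WT −Fe, and to 7155 to 8281 in uri +Fe and 9604 to 9650.03 in WT +Fe. They did not move as 1 group. In uri −Fe against WT −Fe 6 were lower and 1, MYB36, was higher (0.55), a share of 58.3% called, against 26.6% of all. In uri −Fe against uri +Fe 3 were lower and 2, CASP5 (0.64) and MYB36 (0.58), were higher, a share of 41.7%, against 33.1% of all. These 2 genes are named because of their values. In uri +Fe against WT +Fe 4 were lower and 0 higher (33.3%, against 3.12% of all). In WT −Fe against WT +Fe 0 were called, against 5.65% of all, with 2 at an unadjusted p under 0.05 by limma, against 18.1% of all. A smaller share of cells of a type and less RNA per cell cannot be told apart in these bulk samples. The part of shoot tissue and of root cell types in the mitochondrial values was not tested.

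**Figure D4:**
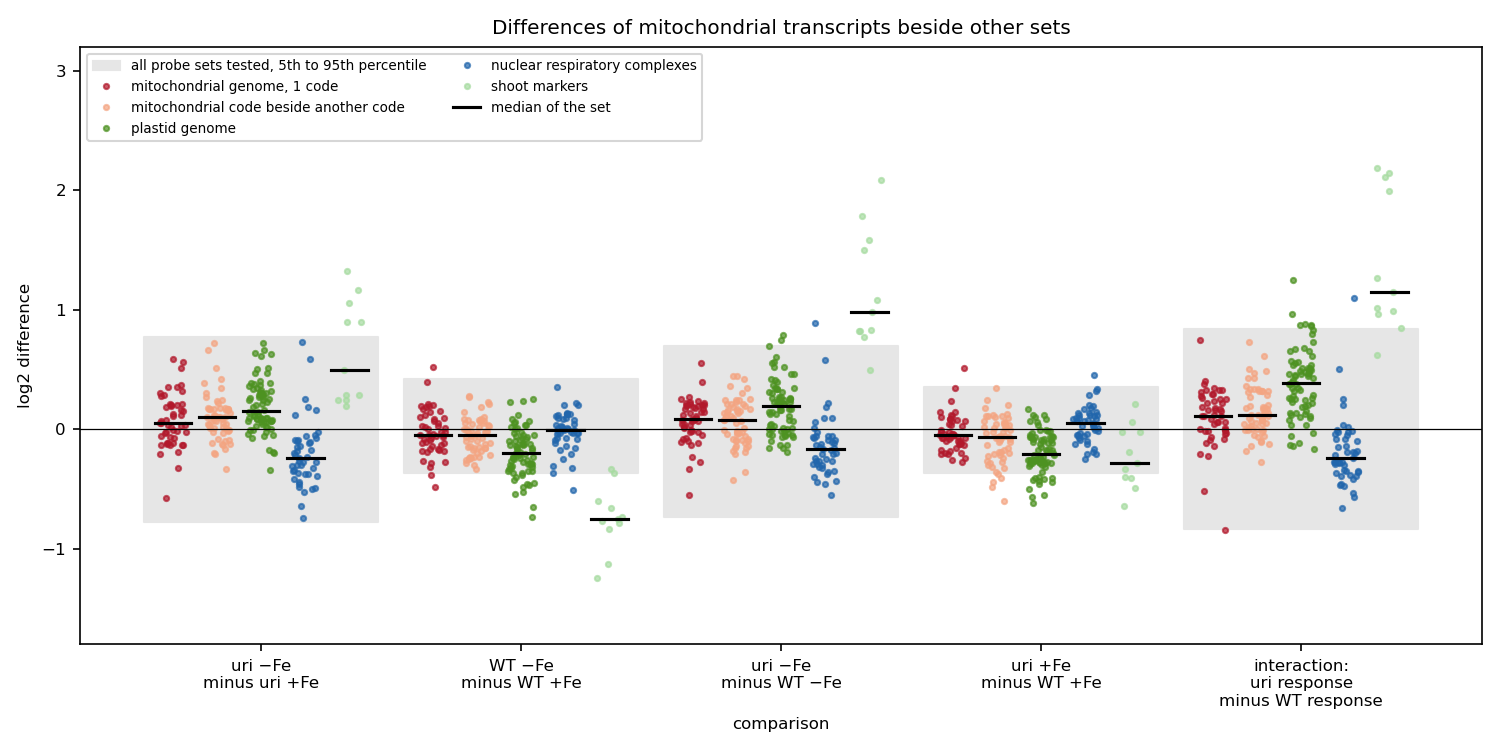
Log2 difference (y axis) in the 5 comparisons (x axis) for the 49 mitochondrial members, the 57 probe sets with a mitochondrial code beside another code, 72 plastid probe sets, 45 nuclear genes of the respiratory complexes and 11 shoot markers, with 1 point per probe set and a black bar at the median of each set. The grey band holds all probe sets tested between their 5th and 95th percentile. Most mitochondrial members lie inside the band, with medians between −0.05 and 0.11, while the shoot markers have a median of 0.98 in uri −Fe minus WT −Fe.

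The 57 probe sets that carry a mitochondrial code beside another code are not members, and no gene was named from them. Of these, 5 were called higher and 0 lower in uri −Fe against uri +Fe (8.77%, against 33.1% of all probe sets tested), with a median difference of 0.10. In WT −Fe against WT +Fe 0 were called, against 5.65% of all. In uri −Fe against WT −Fe 1 was called higher (1.75%, against 26.6% of all), and in uri +Fe against WT +Fe 0 were called (3.12% of all). In the interaction 1 was called higher (1.75%, against 20.4% of all). The shares of these probe sets were thus below the background. Whether their signal comes from the organelle or from the copy on chromosome 2 cannot be told apart.

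Nuclear genes of the respiratory complexes, which supply the partners of the mitochondrial subunits, were read from a list of 55 genes, of which 45 had a probe set of their own. In uri −Fe against uri +Fe, 15 of the 45 fell and 2 rose, with a median difference of −0.24. In all 37.8% of the list was called, against 33.1% of all probe sets tested, where 18% fell and 15.1% rose. Most genes of the list read above the array median. In the third brightness class 43.8% of all probe sets were called, and in the brightest class 50.3%. The cytochrome c gene CYTC-2 fell by 0.74 (limma adjusted p = 0.00187), and CYC1-1, the gene of cytochrome c1 in complex III, fell by 0.64 (adjusted p = 0.00135). The complex I gene B13 fell by 0.52 and the complex IV genes COX5c-3 and COX6b-1 fell by 0.49 and 0.48. The 2 that rose were CAL2, a carbonic anhydrase-like subunit of plant complex I, and QCR7-2, a subunit of complex III. CAL2 read 11.56 and 11.54 in uri −Fe, against 10.99 and 10.93 in uri +Fe, and QCR7-2 read 7.80 and 7.89 in uri −Fe, against 7.01 and 7.22 in uri +Fe. By complex, the called nuclear genes were 1 higher and 4 lower of 14 for complex I, 0 and 1 of 4 for complex II, 1 and 5 of 12 for complex III with cytochrome c, 0 and 3 of 8 for complex IV, and 0 and 2 of 7 for complex V.

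In wild type 1 of the 45 nuclear genes was called (2.22%, against 5.65% of all probe sets tested), and the median was −0.01. The gene was COX5c-3, which fell by 0.51 in WT −Fe against WT +Fe (limma adjusted p = 0.0300). In uri −Fe against WT −Fe 2 were higher, again CAL2 and QCR7-2, and 6 were lower (17.8% called, against 26.6% of all), with a median of −0.16. In uri +Fe against WT +Fe 0 were called by limma, against 3.12% of all. There 4 of the 45 had an unadjusted p under 0.05, against 16% of all. In the interaction QCR7-2 (1.098) and CAL2 (0.51) were called higher and CYC1-1 (−0.66) lower. This was 6.67% of the 45, below the 20.4% of all probe sets tested. In uri −Fe against uri +Fe the mitochondrial members and the nuclear genes of complexes I, IV and V had medians of opposite sign. These were 0.31 and −0.24 for complex I, 0.14 and −0.08 for complex IV, and 0.51 and −0.27 for complex V, the last from atp4 alone on the mitochondrial side. The 0.31 was the difference of nad5c, which did not pass, while nad4 (−0.12) and nad7 (−0.06) pointed down. Neither cox1 nor cox2 passed. Apart from nad4 and cox1, these mitochondrial members read below each nuclear gene of the list on all arrays. The difference between the 2 sets of genes was not tested.

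Of 15 nuclear genes listed for transcription, processing and decay of mitochondrial RNA, 12 were measured. In uri −Fe against uri +Fe 1 rose and 3 fell, a share of 33.3%, near the 33.1% of all probe sets tested. The gene listed as PNP1 (AT5G14580), annotated as a polyribonucleotide nucleotidyltransferase, the enzyme that degrades tailed RNA in plant mitochondria, read 5.90 and 6.06 in uri −Fe, against 6.89 and 6.98 in uri +Fe. It fell by 0.96 on the log2 scale (SE 0.11, adjusted p = 5.2e-05), and both uri −Fe arrays lay below both uri +Fe arrays. In wild type it read 6.67 and 6.68 in WT −Fe, against 6.70 and 6.65 in WT +Fe, and the interaction was −0.96 ± 0.16 (adjusted p = 0.00128). It was also lower in uri −Fe than in WT −Fe, with a difference of −0.69 ± 0.11 (adjusted p = 0.00065).

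A second ribonuclease gene moved the other way. RNR1 (AT5G02250), a ribonuclease of the RNase II family known from both organelles, read 7.99 and 8.21 in uri −Fe, against 7.48 and 7.74 in uri +Fe, a rise of 0.49 ± 0.14 (adjusted p = 0.0178). In WT it read 7.54 and 7.25 under −Fe, against 7.60 and 7.58 under +Fe, and the interaction was 0.69 ± 0.20 (adjusted p = 0.0293). WHY2, which encodes a single-stranded DNA-binding protein of mitochondria, fell by 0.46 in uri −Fe against uri +Fe (adjusted p = 0.00609). It was lower under −Fe in WT as well, at 8.67 and 8.65, against 8.98 and 8.95 under +Fe, and was not called there. In wild type 0 of the 12 were called by limma, against 5.65% of all probe sets tested, with 1 at an unadjusted p under 0.05, against 18.1% of all. In uri +Fe against WT +Fe 0 of the 12 were called (3.12% of all), with 2 at an unadjusted p under 0.05 (16% of all).

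Of 8 nuclear genes listed for maintenance of mitochondrial DNA, 4 were measured. In uri −Fe against uri +Fe 1 of the 4 was called (33.1% of all probe sets tested), and in uri −Fe against WT −Fe 1 was (26.6% of all). MSH1, a MutS homologue that suppresses recombination in organelle genomes, fell by 0.58 in uri −Fe against uri +Fe (adjusted p = 0.0216), where it read 5.35 and 5.48 in uri −Fe, against 5.67 and 6.32 in uri +Fe. OSB1, a single-stranded DNA-binding protein of mitochondria, was higher in uri −Fe than in WT −Fe by 0.42 (adjusted p = 0.0210). In WT −Fe against WT +Fe 0 of the 4 were called by limma (5.65% of all), and 0 had an unadjusted p under 0.05 (18.1% of all).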

How the data were processed

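Total RNA of roots was labelled with biotin and hybridised to 8 arrays. Per the submitters' processing notes the authors made probe-set intensities with RMA (robust multi-array averaging), whose version is not given in the sources used here. The deposited intensities were linear, with array medians of 119.55 to 128.29, and log2 was taken from them. The number of arrays, 2 per group, limits the precision. Annotation came from the workbook and was joined by probe-set identifier, since 44 lines carried another identifier. The 2 deposited tables of intensities differed by at most 5e-06.

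After leaving out 64 controls, 22746 probe sets entered 1 fit in limma 3.58.1 under R 4.3.3 (lmFit, contrasts.fit, eBayes) with a mean per group and 5 contrasts. The fit had 4 residual and 8.32 prior degrees of freedom and a prior SD of 0.132. Tests were two-sided, adjusted by Benjamini-Hochberg over all 22746, and called at an adjusted p under 0.05. Errors are moderated standard errors. The fit was tested on simulated data. Alternatives were the replicate block, leaving out each array, centring, quantile normalization, leaving out dim probe sets, trended moderation, adding 32, the other table, fewer arrays and a wider membership.

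The members and gene lists were chosen with earlier results of these data known. One entry of the RNA list, AGS1, was moved to its RefSeq locus after values were seen. Members named beyond their levels were, per comparison, up to 8 called each way, and per functional class up to 4 with the largest difference. From each nuclear list up to 3 were named per comparison. No mitochondrial code was matched in the RefSeq gene table used, so no coordinates and no sequences are printed.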

Additional observations from a re-analysis of the deposited data

Results flagged for a closer look

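The iron responses of 2 mitochondrial transcripts differed between the genotypes by the interaction test. For nad9 (ATMG00070), a complex I subunit, the response in uri minus that in WT was 0.74 on the log2 scale (adjusted p = 0.0329). Both uri −Fe arrays were the highest of its 8 arrays. Leaving out any of 6 arrays ended this call, with adjusted p between 0.0615 and 0.129. For ATMG01240, a reading frame of unknown function, the difference was −0.84 (adjusted p = 0.0222), and 4 of the 8 fits without 1 array lost the call, with adjusted p between 0.0638 and 0.0993. With groups of 2, single arrays were not screened as outliers.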

How the results depend on the processing

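No median of the 5 comparisons and none of the 20 member differences with an unadjusted p under 0.05 changed sign under the alternatives run for it. The balance of called members between higher and lower did turn in some fits without 1 array. This held for uri −Fe against uri +Fe without uri +Fe replicate 1, and for the interaction without either WT +Fe array. Of the alternative values 134 counts and medians stayed close to the main ones and 34 moved. Of those for single members 266 kept their side of the threshold, 32 lost it and 17 gained it. The replicate block gave 5, 0, 1, 0 and 2 called members in the 5 comparisons, against 32%, 5.12%, 25.6%, 2.68% and 19.2% of all probe sets tested. These were the same genes as without it, and no other member's call changed. Correlations between groups of the differences between replicates 1 and 2 ran from −0.22 to 0.16. They do not settle whether same-numbered samples were handled together. In each group replicate 1 read above replicate 2 in the actin and ubiquitin 3′ to 5′ differences and in the median of the plastid probe sets. The GAPDH 3′ to 5′ difference and the median of the 49 members did not do so in each group. For uri −Fe against uri +Fe the count was 10 of 106 with the wider membership and 3 after adding 32, 0 to 7 without 1 array, and the median was 0.118 after centring and 0.0465 to 0.164 without 1 array. For WT −Fe against WT +Fe the count was 1 after quantile normalization (6.11% of all) and 1 with those 4 arrays alone (7.04% of all). It changed in some fits without 1 array. For uri −Fe against WT −Fe the count was 2 with the wider membership (26.6% of all) and 2 of 26 without the dimmest class (36.7% of all). It was 2 with trended moderation (28.4% of all), 2 after adding 32 (28% of all) and 3 with those 4 arrays alone (33.7% of all). This count changed in some fits without 1 array. The median was 0.0335 after adding 32, against 0.0082 over all probe sets tested. For uri +Fe against WT +Fe the count changed only without uri +Fe replicate 1. For the interaction the count was 0 after adding 32, against 22.3% of all. It fell most without uri −Fe replicate 1, WT −Fe replicate 1 or uri +Fe replicate 2. The median interaction was 0.168 after centring, against 0.0541 over all probe sets tested, since centring moved that median too. It was 0.0479 after adding 32, against −0.0001 over all, and 0.0453 to 0.182 without 1 array. A group left with 1 array was assumed to vary like the others, and the causes of these shifts were not tested. Low signal limits the members: 34 of 49 lay below the lower quartile on at least 1 array.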
